A study of Mus musculus with 9 samples.

Results

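The genes described here are the nuclear-encoded subunits of the mitochondrial respiratory chain and ATP synthase. They were chosen by name from the deposited count table of cultured mouse heart cells, as protein-coding entries of the Nduf families (complex I), Sdha to Sdhd (complex II), the Uqcr family and Cyc1 (complex III), the Cox4 to Cox8 families (complex IV) and the Atp5 family (complex V). The assembly factors named Ndufaf were left out. The rule found 88 of 55401 entries, with 87 symbols, since Atp5o was listed in 2 entries. Of these, 85 had enough counts to be tested, among 16762 tested genes. The 3 others were Cox8c and the second Atp5o entry, with 0 counts in all 9 libraries, and Cox7b2, with 3 counts in the control libraries and 0 elsewhere. By complex, 38 of the tested members belonged to complex I, 4 to complex II, 9 to complex III, 17 to complex IV and 17 to complex V.

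RNA-seq libraries of poly(A)-enriched RNA were made from primary neonatal mouse ventricular myocytes (NMVMs), heart muscle cells prepared from wild-type C57BL/6J pups at 1 day of age. There were 3 groups of 3 libraries. The control group was kept in normal oxygen in DMEM with 10% FBS. The hypoxia group spent 6 h in a sealed AnaeroPack chamber in DMEM without glucose and without serum. The hypoxia + rSRGN group was treated in the same way, with recombinant SRGN (serglycin) added for the hypoxic period. Low oxygen, glucose and serum changed together, and their parts in a difference from control cannot be told apart. The labels do not say whether the libraries of a group came from separate preparations of cells, so p-values measure only the spread between these libraries.

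The respiratory chain passes electrons from NADH and succinate through complexes I, II, III and IV to oxygen, and complexes I, III and IV pump protons across the inner mitochondrial membrane. ATP synthase, or complex V, uses the returning protons to make ATP. Most subunits are encoded in the nucleus and a small core set in mitochondrial DNA. The working heart has an abundant chain, and its muscle cells use heart and skeletal muscle isoforms of some complex IV subunits in place of the isoforms found in most tissues.

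Total counts per library were 16583985 to 22781557, and the control libraries were the deeper ones. The members took 2.39% of all counts on average in the control libraries, 0.934% to 0.994% in hypoxia and 0.960% to 0.980% in hypoxia + rSRGN. Levels are given below as CPM, the counts of a gene relative to the library total, scaled by the trimmed mean of M values (TMM). Levels of different genes are compared only after division of these values by the exonic length in kilobases (FPKM). In bulk RNA, fewer cells of a type and less RNA per cell cannot be told apart. The counts of markers below stand against 25.2% of all tested genes called lower and 26.5% called higher in hypoxia, by the rule given in the next paragraph. All 20 cardiomyocyte markers, among them Myh6, Tnnt2 and Actc1, were called lower in the hypoxia libraries, and the median of their log2 fold changes was -3.63. Their summed level was 60313 to 73159 CPM in control, 5155 to 8094 CPM in hypoxia and 10470 to 11232 CPM in hypoxia + rSRGN, and 0 of the 20 were without counts in any group. Of 12 fibroblast markers, 9 were higher in hypoxia, and their sum was 13226 to 15402 CPM in control, 27790 to 30631 CPM in hypoxia and 30562 to 31574 CPM in hypoxia + rSRGN. Of 9 macrophage markers 8 were lower, with sums of 228 to 243 CPM in control and 24.8 to 27.9 CPM in hypoxia. Of 8 endothelial markers 6 were lower, and of 5 smooth muscle markers 1 was higher and 1 lower, which is near the share over all genes. The 6 erythroid markers were not tested, and their sum reached at most 0.591 CPM. The mitochondrial rRNAs, which carry no long poly(A) tail, summed to 2010 to 2500 CPM in control, 23301 to 25429 CPM in hypoxia and 22461 to 26486 CPM in hypoxia + rSRGN. The part of these shifts in the results below was not tested.

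In hypoxia against control, the respiratory chain subunits were lower almost throughout. A gene was called at a Benjamini-Hochberg adjusted p below 0.05 in edgeR's quasi-likelihood test over all genes and a fold change of at least 1.5. Of the 85 members, 73 were called lower, against a background of 25.2% of all tested genes. The 1 member called higher was Cox4i2, against a background of 26.5%, and 11 were not called. The median log2 fold change of the members was -1.26, where the median of all genes was 0.05 and 13.5% of all genes lay below the members' median. All 3 hypoxia libraries lay below all 3 control libraries for 80 of the 85 members, above them for 2 (Cox4i2 and Cox7a2l), and overlapped with them for 3 (Ndufa4l2, Cox6b2 and Atp5g2). Separation of libraries was not counted over all genes. Without a fold limit, 5716 of all 16762 tested genes passed the adjusted p as lower and 6173 as higher. The summed level of the members was 23966, 24569 and 25144 CPM in control and 9694, 9408 and 9134 CPM in hypoxia.

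**Figure D1:**
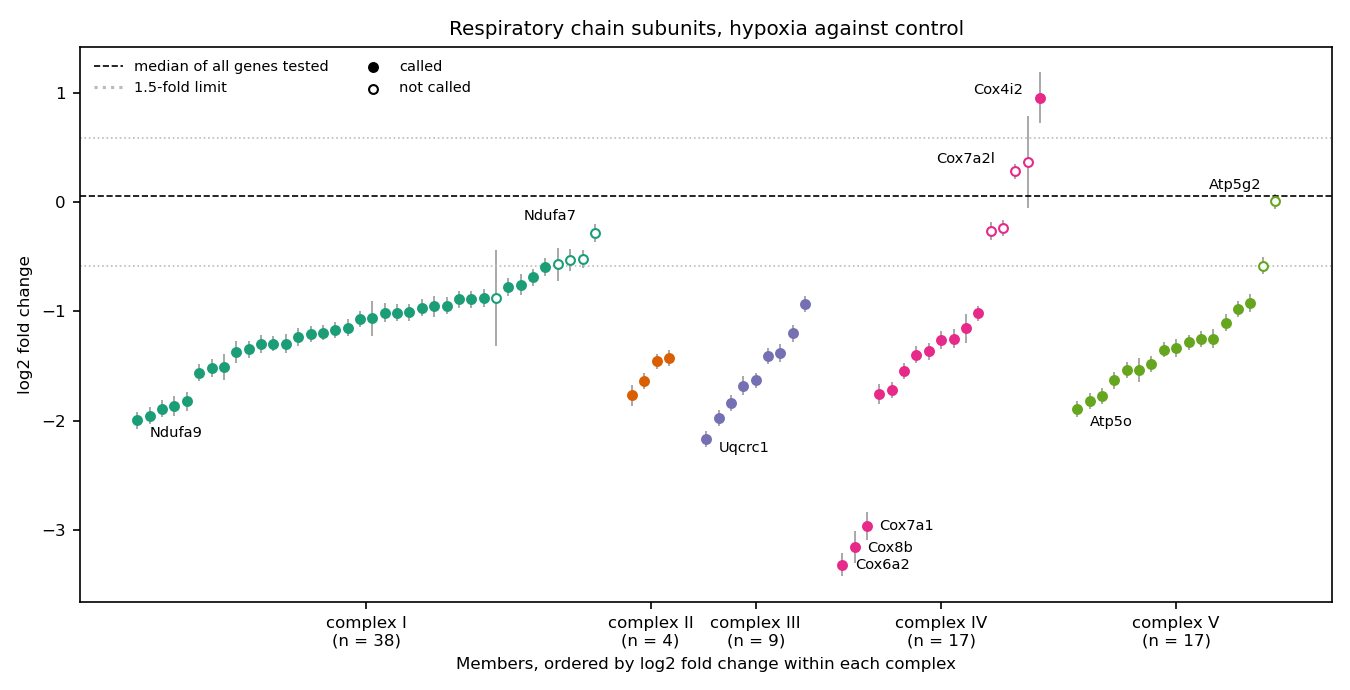
Log2 fold change of each of the 85 tested members in hypoxia against control, ordered within each complex, with bars of 1 standard error. Filled points are called, the dotted lines mark 1.5-fold and the dashed line is the median of all tested genes. Cox6a2, Cox8b and Cox7a1 lie near -3, and Cox4i2 is the member called higher.

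Complex I, which takes electrons from NADH, had 33 of its 38 tested members lower in hypoxia, with a median log2 fold change of -1.07. All 7 core subunits, which hold the flavin and the iron-sulfur clusters or lie beside the quinone site, were lower (median -1.17), as were 26 of the 31 accessory subunits (median -1.01). Among the core subunits, Ndufs1, the largest iron-sulfur subunit, was at 320.4, 323 and 351 CPM in the control libraries and at 91.3, 89.7 and 75.9 CPM in hypoxia. It was lower by -1.95 ± 0.08 on the log2 scale (SE, edgeR adjusted p = 2.6e-18). Ndufv1, which binds NADH and the flavin, had 347, 380.0 and 373 CPM in control against 107, 102 and 88.7 CPM in hypoxia (log2 fold change -1.89 ± 0.08). These 2 subunits of the electron input module fell further than Ndufs3 (log2 fold change -1.21), Ndufv2 (-1.17), Ndufs7 (-1.01) and Ndufs8 (-0.89). The difference between core subunits was not tested.

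The lowest value in complex I was that of Ndufa9, an accessory subunit next to the quinone site, at 284, 279.5 and 300.1 CPM in control and 77.8, 74.9 and 63.9 CPM in hypoxia (3.99-fold lower, edgeR adjusted p = 1.24e-18). At the other end stood Ndufa7, with 62.9, 64.8 and 65.8 CPM in control and 57.2, 48.2 and 53.6 CPM in hypoxia. Its groups did not overlap, but the difference of -0.28 ± 0.08 was under the fold limit (edgeR adjusted p = 0.00267). The other complex I members not called were Ndufb1-ps (-0.57), Ndufb3 (-0.53), Ndufa2 (-0.52) and Ndufa4l2 (-0.88 ± 0.44). The Ndufb1 subunit is annotated in the mouse under the name Ndufb1-ps, and it is counted as the protein-coding entry the table gives. The hypoxia libraries were not equally far from control for every subunit. Ndufb3, for example, had 42.2, 55.4 and 39.4 CPM, and Ndufa8 63.3, 82.7 and 56.6 CPM, with replicate 2 the highest in both. Replicate 2 was the lowest for other members, such as Ndufb9 (26.2, 16.1 and 22.9 CPM) and Ndufs6 (36.2, 25.5 and 33.0 CPM).

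Complex II, or succinate dehydrogenase, is the only complex made of nuclear-encoded subunits alone and is shared with the citric acid cycle. All 4 of its members were lower in hypoxia, with log2 fold changes from -1.76 to -1.42. Sdha, the flavoprotein that oxidises succinate, was at 838, 875 and 887 CPM in control and at 232, 313 and 220.4 CPM in hypoxia. The hypoxia libraries of Sdha were more spread than those of control, and replicate 2 was the highest, as for Ndufb3 and Ndufa8. Sdhd, a membrane anchor, had 270.1, 282 and 268 CPM in control and 87.0, 88.4 and 89.1 CPM in hypoxia (log2 fold change -1.63 ± 0.07). The iron-sulfur subunit Sdhb (-1.46 ± 0.07) and the other anchor Sdhc (-1.42 ± 0.07) fell by similar amounts.

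Complex III, which carries electrons from ubiquinol to cytochrome c, had all 9 members lower, with the lowest median of the complexes at -1.63. Uqcrc1, a core subunit facing the matrix, was at 531, 564 and 564 CPM in control and at 132, 115 and 124 CPM in hypoxia. This 4.48-fold difference was the largest outside complex IV (log2 fold change -2.17 ± 0.07, edgeR adjusted p = 5.2e-20). Both nuclear-encoded electron carriers of the complex were also lower. Cyc1, or cytochrome c1, had 297, 327 and 313 CPM in control against 83.9, 79.7 and 74.4 CPM in hypoxia (-1.98 ± 0.07), and Uqcrfs1, the Rieske iron-sulfur protein, had 324, 345 and 338 CPM against 93.3, 87.4 and 101 CPM (-1.83 ± 0.08). Cytochrome b, the carrier encoded in mitochondrial DNA (mt-Cytb), was at -0.88 ± 0.09. The second core subunit, Uqcrc2, was lower by -1.63 ± 0.07. The smallest difference was that of Uqcrq, a small subunit, at 194, 201 and 211 CPM in control and 111, 103 and 104 CPM in hypoxia (-0.93 ± 0.07).

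Complex V had 15 of its 17 tested members lower, with a median of -1.33. Per length, its catalytic β subunit Atp5b (881 ± 33.2 FPKM, SD, n = 3) and α subunit Atp5a1 (775 ± 9.93 FPKM) had the highest levels of all members in control, followed by Cox6b1 (605 ± 15.5 FPKM) and Cox4i1 (471 ± 22.7 FPKM). Atp5b was at 3581, 3755 and 3859 CPM in control and at 1349, 1398 and 1266 CPM in hypoxia (-1.48 ± 0.07). Atp5a1 was at 2396, 2440.1 and 2456 CPM in control and at 702, 726 and 639 CPM in hypoxia, which is 3.53-fold lower. Both subunits therefore had hypoxia libraries well under every control library. The 4 peripheral stalk subunits, which hold the catalytic head still, were all lower (median -1.44), with Atp5o lowest at -1.89 ± 0.07. Of the exonic bases of Atp5o, 47.9% are shared with other entries, among them the second Atp5o entry, and featureCounts by default leaves out fragments that fall on 2 genes. The 5 other membrane subunits were all lower as well (median -1.25), and of the 5 subunits of the catalytic head only Atp5e was not called, at -0.58 ± 0.08, just under the fold limit.

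The c ring, the rotor that protons turn, is built from 1 protein encoded by 3 genes that differ in their import sequences. Atp5g3 fell from 782, 793 and 799 CPM to 226, 251 and 217 CPM and Atp5g1 from 316, 330.4 and 325 CPM to 112, 103 and 98.8 CPM. Atp5g2 was at 138, 143 and 148 CPM in control and at 136, 147 and 147 CPM in hypoxia, so that its groups overlapped and its log2 fold change was 0.00 ± 0.07 (edgeR adjusted p = 0.955). Per kilobase, Atp5g2 made 16.6% ± 0.360 (SD, n = 3) of the c ring fragments in control. Its share was 39.2%, 39.2% and 42.3% in hypoxia and 35.7%, 35.1% and 36.5% in hypoxia + rSRGN. Atp5g3 went from 70.6% ± 0.360 (SD, n = 3) to 49.8% ± 1.69 in hypoxia. These shares were not tested. The protein part of the c ring that remains after import is the same for the 3 genes, and the shares are of RNA.

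**Figure D2:**
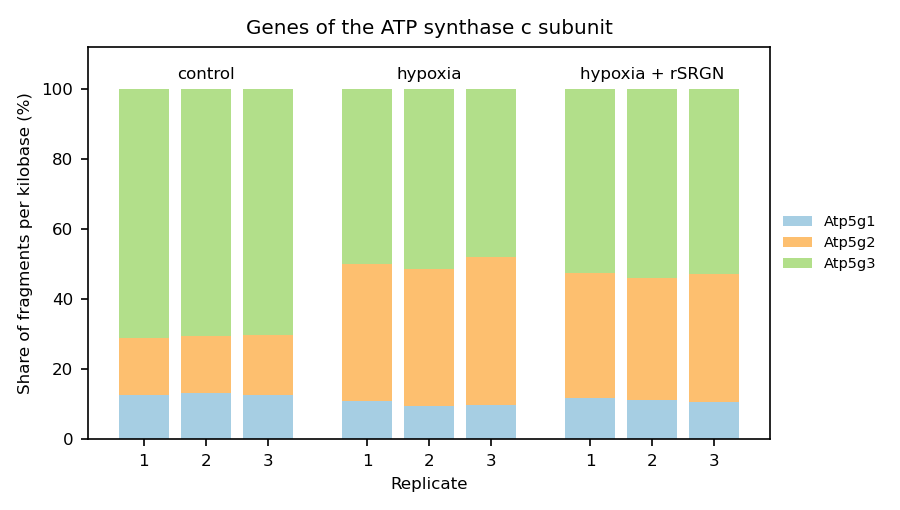
Share of Atp5g1, Atp5g2 and Atp5g3 in the fragments per kilobase of the 3 c subunit genes, for each library by group and replicate. The share of Atp5g2 is 16.6% on average in control, 40.2% in hypoxia and 35.8% in hypoxia + rSRGN.

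Complex IV, or cytochrome c oxidase, which hands the electrons to oxygen, had the widest range. Of its 17 tested members 12 were lower and 1 was higher in hypoxia, and log2 fold changes ran from -3.32 to 0.95. The 3 lowest were the heart and skeletal muscle isoforms Cox6a2, Cox8b and Cox7a1. Cox6a2 was at 213, 237 and 248 CPM in control and at 28.3, 22.8 and 18.9 CPM in hypoxia, 9.96-fold lower (log2 fold change -3.32 ± 0.11, edgeR adjusted p = 9.43e-19). Cox8b was at 43.8, 50.7 and 52.3 CPM in control and at 5.96, 6.76 and 3.71 CPM in hypoxia, 8.91-fold lower (edgeR adjusted p = 2.8e-16). Cox7a1 was at 57.4, 64.3 and 68.2 CPM in control and at 9.94, 8.09 and 6.31 CPM in hypoxia, 7.78-fold lower (edgeR adjusted p = 8.84e-18). For each of the 3 genes every hypoxia library lay far under every control library. The cardiomyocyte markers moved in the same direction with a median of -3.63, and their part in these differences was not tested.

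The isoforms that most tissues use in the same positions stayed closer to control. Cox6a1 was at 186, 198 and 178 CPM in control and at 155, 169 and 152 CPM in hypoxia (-0.24 ± 0.07), and Cox8a at 179, 183 and 186 CPM in control and 165, 128 and 166 CPM in hypoxia (-0.26 ± 0.08). Both were past the threshold on the adjusted p but under the fold limit, and both were called lower, at -0.78 and -0.84, when each library's trend of level on gene length was taken out. Cox7a2 did pass, with 213, 203 and 215 CPM in control and 101, 74.8 and 90.2 CPM in hypoxia (-1.25 ± 0.08, edgeR adjusted p = 1.88e-13). Per kilobase, the heart isoform made 54.1%, 55.2% and 58.9% of the Cox6a fragments in the control libraries and 15.8%, 12.2% and 11.3% in hypoxia. Cox7a1 made 34.7% ± 2.10 (SD, n = 3) of the Cox7a1 and Cox7a2 fragments in control and 13.96% ± 2.64 in hypoxia, and Cox8b 31.4% ± 1.63 of the Cox8 pair in control and 5.97% ± 2.33 in hypoxia. The ratio of the heart isoform to its partner was thus 8.53-fold lower for Cox6a2 to Cox6a1, 7.58-fold lower for Cox8b to Cox8a and 3.30-fold lower for Cox7a1 to Cox7a2. In each case the 3 ratios of hypoxia lay below the 3 of control, which in an exact two-sided permutation test gives p = 0.1, the smallest that 3 against 3 libraries allow, and 0.125 after adjustment over the 10 ratio tests. A ratio within a library does not depend on how libraries are scaled.

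**Figure D3:**
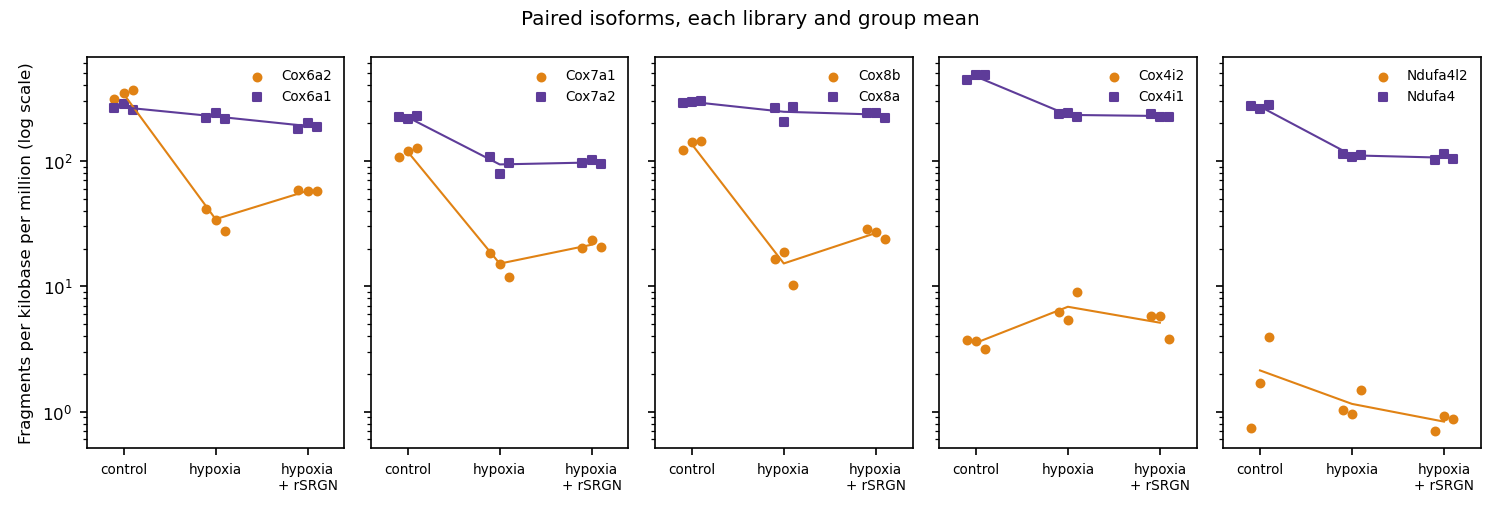
Level per length of 5 isoform pairs of complex IV and of the Ndufa4 family in each library, on a log axis, with lines through the group means. Cox6a2, Cox7a1 and Cox8b drop far more in hypoxia than their partners and are higher in hypoxia + rSRGN than in hypoxia. Cox4i2 goes the other way, and Ndufa4l2 is spread widely in control.

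To set heart isoforms beside their partners, the bases before their start sites are shown for 2 of these pairs from RefSeq (GRCm38.p6, the same assembly as mm10). Each sequence is the 250 bases before the annotated start, 5′ to 3′ on the strand of the gene. Capitals mark matches, on either strand, to the motifs GCGCANGCG (nuclear respiratory factor 1, NRF1), AAGGTCA (estrogen-related receptors), CCGGAAG (ETS factors such as GABP), AAGATGG (YY1), ACGTG (core of the hypoxia response element) and CCAAT. Cox7a1 lies on chromosome 7, plus strand (chr7:30183921-30184170), and Cox7a2 on chromosome 9, minus strand (chr9:79759854-79760103). Cox8b lies on chromosome 7, minus strand (chr7:140900447-140900696), and Cox8a on chromosome 19, minus strand (chr19:7217617-7217866).
Cox7a1: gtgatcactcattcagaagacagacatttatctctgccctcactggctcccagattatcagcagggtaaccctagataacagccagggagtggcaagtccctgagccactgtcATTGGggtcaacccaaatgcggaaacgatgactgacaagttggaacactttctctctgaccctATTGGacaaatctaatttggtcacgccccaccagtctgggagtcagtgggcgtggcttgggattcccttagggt
Cox7a2: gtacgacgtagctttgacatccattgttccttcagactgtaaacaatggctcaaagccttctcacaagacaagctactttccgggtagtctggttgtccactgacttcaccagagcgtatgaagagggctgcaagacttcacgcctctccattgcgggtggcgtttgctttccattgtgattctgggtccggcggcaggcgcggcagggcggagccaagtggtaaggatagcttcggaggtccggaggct
Cox8b: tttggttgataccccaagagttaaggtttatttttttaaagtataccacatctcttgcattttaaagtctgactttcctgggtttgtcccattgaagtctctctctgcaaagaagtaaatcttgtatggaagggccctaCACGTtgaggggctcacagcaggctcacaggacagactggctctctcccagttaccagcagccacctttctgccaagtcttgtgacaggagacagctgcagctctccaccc
Cox8a: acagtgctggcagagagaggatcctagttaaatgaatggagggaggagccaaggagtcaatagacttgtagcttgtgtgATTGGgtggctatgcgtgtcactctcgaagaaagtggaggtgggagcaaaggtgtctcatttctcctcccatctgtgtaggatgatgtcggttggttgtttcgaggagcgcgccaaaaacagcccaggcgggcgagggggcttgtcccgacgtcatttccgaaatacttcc

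In these 250 bases Cox7a1 and Cox8a held matches to CCAAT, Cox8b held 1 match to ACGTG and Cox7a2 held none. With the 50 bases after the start included, Cox7a1 also held ACGTG and Cox8a the ETS motif. Of the 87 member symbols, 68 had an entry of 300 bases, running 250 before to 50 after the start. Within it, NRF1 matched in 20 of the 68 (29.4%) and in 7.03% of all 27025 genes of the table. The ETS motif matched in 25% against 9.93%, YY1 in 16.2% against 7.28% and the receptor motif in 11.8% against 5.38%. ACGTG matched in 25% against 21.8% and CCAAT in 44.1% against 41.1%. Members with an NRF1 match included Uqcrc1 and Atp5o, which were among the lowest in hypoxia, and also Cox6a1 and Atp5g2, which were not called. A match is a run of letters and does not show that a factor binds there.

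Cox4i2 is the isoform of the largest nuclear-encoded subunit of complex IV that is known from lung and is induced by low oxygen in some cells. It was at 2.97, 2.89 and 2.51 CPM in control and at 4.89, 4.28 and 7.07 CPM in hypoxia, 1.93-fold higher (log2 fold change 0.95 ± 0.23, edgeR adjusted p = 0.000722). Its partner Cox4i1 was at 690.0, 748 and 754 CPM in control and at 364, 374 and 345 CPM in hypoxia (-1.02 ± 0.07). Cox4i2 was nevertheless a small part of the pair, at 0.748% ± 0.0936 (SD, n = 3) of the fragments per kilobase in control and 2.88% ± 0.879 in hypoxia. The ratio of Cox4i2 to Cox4i1 was 3.83-fold higher in hypoxia, and the groups did not overlap (exact two-sided permutation p = 0.1, adjusted 0.125). With the length trend taken out, the difference of Cox4i2 was 0.45 and no longer called. Cox7a2l, a paralog of Cox7a2, had 189, 174 and 188 CPM in control and 219, 219 and 231 CPM in hypoxia (0.28 ± 0.07, edgeR adjusted p = 0.000827, under the fold limit). With the length trend taken out its value was -0.03. Cox6b2, a testis isoform, was at 0.944, 1.31 and 0.580 CPM in control and at 1.13, 0.925 and 1.62 CPM in hypoxia, which overlapped. With rSRGN it was at 0.834, 0.675 and 0.845 CPM, below hypoxia in every library but not called (-0.64 ± 0.43, edgeR adjusted p = 0.346). Its partner Cox6b1 fell in hypoxia from 418, 426 and 439.9 CPM to 158, 134 and 149 CPM.

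Ndufa4, counted above with complex I by its name and now known as a complex IV subunit, fell from 382, 357 and 386 CPM to 156, 148 and 155 CPM (-1.29 ± 0.07). Ndufa4l2, its paralog and a known target of the hypoxia-inducible factors, was at 0.809, 1.85 and 4.35 CPM in control and at 1.13, 1.04 and 1.62 CPM in hypoxia. The control libraries spanned the hypoxia ones, and the difference was not called (edgeR adjusted p = 0.0767). It rested on control replicate 3, without which it was -0.08 and not called. It was called lower without control replicate 1 (-1.31), with a filter of 1 count over all libraries (-0.93) and with the length trend taken out (-1.26). The ratio of Ndufa4l2 to Ndufa4 overlapped between the groups (exact two-sided permutation test, p = 0.5).

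The order of the members by level changed with these differences. Cox6a2 stood at rank 6 of 85 per length in control (342 ± 26.5 FPKM), where it did not differ beyond the spread from Atp5g3 (363 ± 3.86), Uqcr10 (338 ± 7.14) and Cox7b (334 ± 11.5). In hypoxia it stood at rank 56 (34.3 ± 6.92 FPKM). Cox8a went from rank 9 to rank 2 and Cox6a1 from rank 13 to rank 4, although neither had risen. Atp5b was at rank 1 in all groups. In hypoxia the members at ranks 2 to 6, Cox8a, Cox4i1, Cox6a1, Atp5a1 and Cox6b1, lay within 208 to 247 FPKM, and neighbours among them did not differ beyond their SD.

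The members were short genes, with a median exonic length of 1550 bases against 3961 over all tested genes, and short genes moved as a group between these libraries. Among protein-coding genes of up to 1000 bases the median log2 fold change in hypoxia was 0.24, while it was -0.14 above 4000 bases. The 22 members of up to 1000 bases had a median of -1.22 and the 10 above 4000 bases a median of -1.50, so the members were lower in every length class. With the length trend taken out, 80 members were called lower and 0 higher, and the median was -1.57. In that fit 8357 of all 16762 tested genes were called, counting both directions.

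Genes that build or feed the chain differed in how many were called, against the same backgrounds of 25.2% lower and 26.5% higher. The 13 subunits encoded in mitochondrial DNA had 10 members called lower and a median of -1.38. Their summed level was 83037 to 93299 CPM in control and 26298 to 34713 CPM in hypoxia. Among 17 tested genes of electron carriers and coenzyme Q synthesis 10 were lower and 1 was higher, with a median of -1.19. Coq8a, a kinase-like protein of coenzyme Q synthesis, had the lowest value at -3.89 ± 0.11, and Cycs, or cytochrome c, was at -1.40 ± 0.07. Of the 47 tested assembly factors 21 were lower, 2 were higher and 24 were not called, with a median of -0.49. They ranged from -2.55 ± 0.22 for Lyrm7, a chaperone of the Rieske protein, to 0.92 ± 0.12 for Cox18, which inserts a mitochondrially encoded oxidase subunit.

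**Figure D4:**
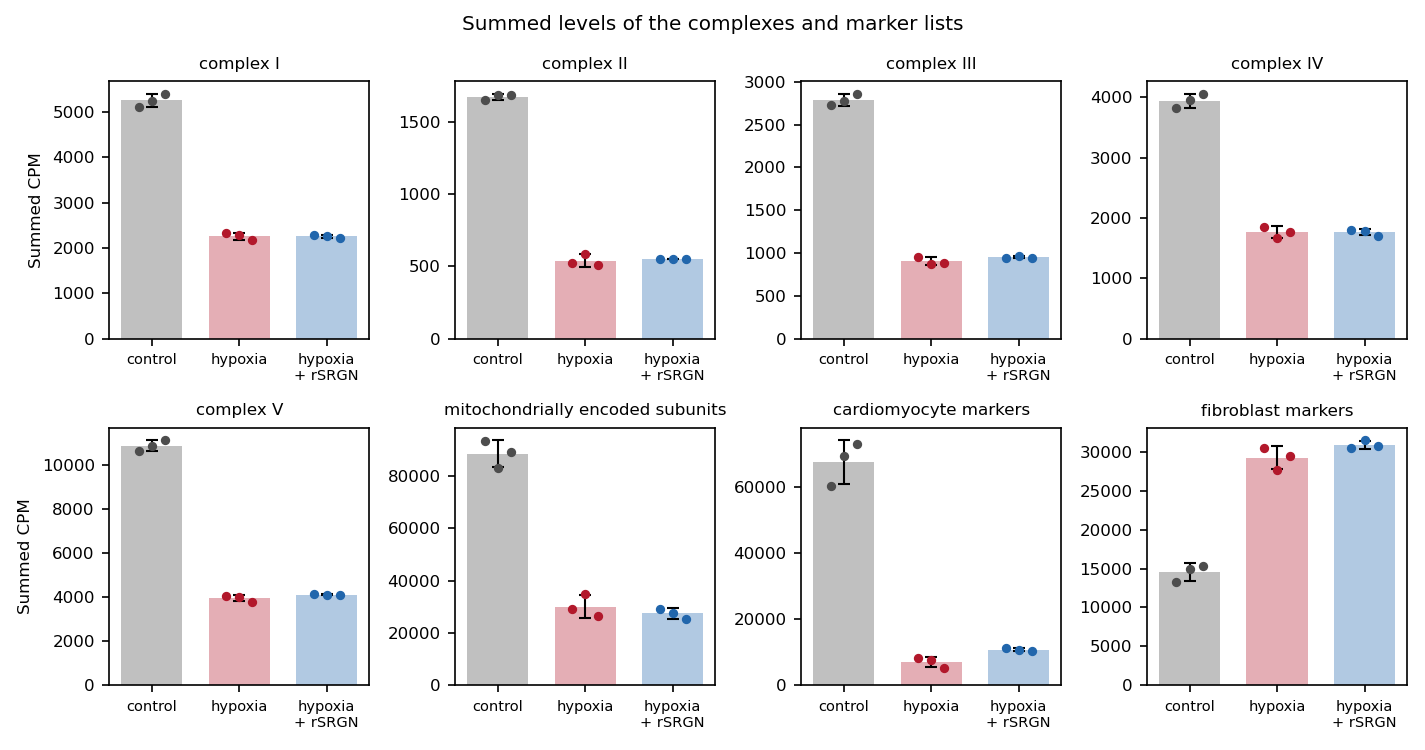
Summed CPM of the members of each complex, of the 13 mitochondrially encoded subunits and of the cardiomyocyte and fibroblast marker lists in each library. Bars are group means with SD (n = 3) and points are libraries. The 5 complexes are lower in both hypoxic groups than in control and nearly level between these groups, while the cardiomyocyte markers are higher with rSRGN than without.

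The comparison of hypoxia + rSRGN with hypoxia, which differ in the added protein as far as the labels say, gave few calls among the members. Called higher were 2 of the 85 members (2.35%), Cox6a2 and Cox8b, against a background of 2.11% of all tested genes, and called lower were 0, against a background of 0.841%. The median log2 fold change was 0.01, with 47 members above 0 and 38 below, and the median of all genes was -0.03. For 78 members the difference and 2 SE on either side lay wholly inside the 1.5-fold limit. The 7 others were Cox6a2, Cox8b, Cox7a1, Ndufb3, Cox4i2, Cox6b2 and Ndufa4l2. The summed level of the members was 9719, 9652 and 9514 CPM in hypoxia + rSRGN, which overlapped with the 9694, 9408 and 9134 CPM of hypoxia.

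Cox6a2 was at 39.5, 38.9 and 39.4 CPM with rSRGN, above the 28.3, 22.8 and 18.9 CPM without it. This was 1.68-fold higher (log2 fold change 0.75 ± 0.11, edgeR adjusted p = 5.32e-05). Cox8b was at 10.4, 9.73 and 8.61 CPM with rSRGN, against 5.96, 6.76 and 3.71 CPM without it, 1.74-fold higher (0.80 ± 0.16, edgeR adjusted p = 0.00113). The groups did not overlap for either gene, and both stayed far below control, where Cox6a2 was 5.93-fold and Cox8b 5.12-fold above hypoxia + rSRGN. Cox7a1 was at 10.7, 12.6 and 11.1 CPM with rSRGN, above the 9.94, 8.09 and 6.31 CPM without it, but under the fold limit (0.50 ± 0.14, edgeR adjusted p = 0.0121). Its difference was called without hypoxia replicate 1 (0.68) and with the length trend taken out (0.70). The libraries of hypoxia + rSRGN were close to each other for these genes, and those of hypoxia were more spread.

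The partners did not rise with the heart isoforms. Cox6a1 had 127, 142 and 130.5 CPM with rSRGN against 155, 169 and 152 CPM without it (-0.25 ± 0.07, edgeR adjusted p = 0.0181, under the fold limit), and Cox8a and Cox7a2 overlapped between the groups. The ratio of Cox6a2 to Cox6a1 was 2.03-fold higher with rSRGN, that of Cox8b to Cox8a 1.87-fold and that of Cox7a1 to Cox7a2 1.37-fold. The ratios of the 2 groups did not overlap in these 3 pairs (exact two-sided permutation p = 0.1, adjusted 0.125). In the same libraries 8 of the 20 cardiomyocyte markers were called higher with rSRGN, 0 lower, with a median of 0.75, and the part of that shift in the isoform ratios was not tested. Of the fibroblast markers 0 were higher and 1 lower. For Cox4i2 to Cox4i1 the groups overlapped (exact two-sided permutation p = 0.4), and for Ndufa4l2 to Ndufa4 they did not (p = 0.1, exact two-sided permutation test).

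**Figure D5:**
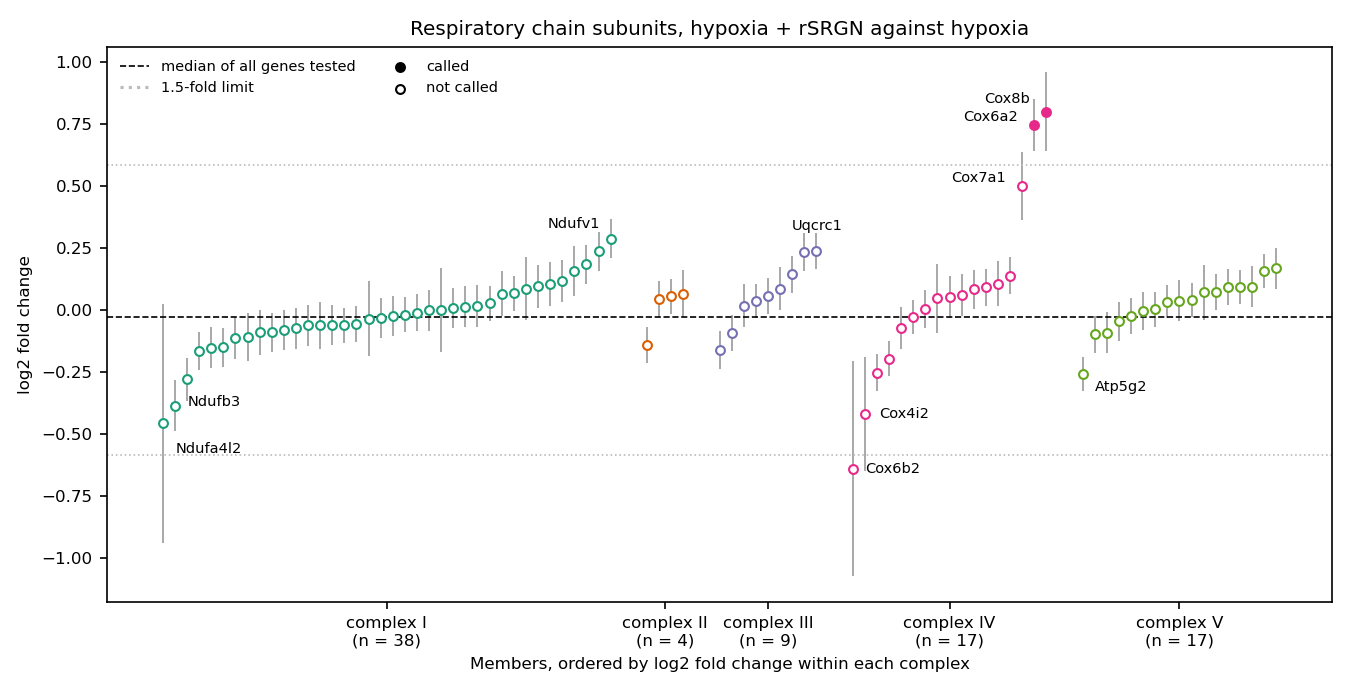
Log2 fold change of each of the 85 tested members in hypoxia + rSRGN against hypoxia, ordered within each complex, with bars of 1 standard error. Filled points are called, the dotted lines mark 1.5-fold and the dashed line is the median of all tested genes. Cox6a2 and Cox8b are the members called, and most others lie well inside the dotted lines.

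Without the fold limit, 11 of the 85 members passed the adjusted p between the hypoxic groups, 7 higher and 4 lower with rSRGN. Of all 16762 tested genes, 1765 passed as higher and 1058 as lower, and both shares are larger than those of the members. The higher members were Cox6a2, Cox8b, Cox7a1, Ndufv1 (0.29), Uqcrc1 (0.24), Ndufa9 (0.24) and Uqcrfs1 (0.23). The lower members were Ndufb3 (-0.39), Ndufc2 (-0.28), Atp5g2 (-0.26) and Cox6a1 (-0.25). With the length trend taken out, the lower ones were nearer to 0, at -0.19 for Ndufb3, -0.08 for Ndufc2, -0.09 for Atp5g2 and -0.06 for Cox6a1, and the median of protein-coding genes of up to 1000 bases was -0.18 in this comparison before that correction. Ndufv1, Uqcrc1, Ndufa9 and Uqcrfs1 were then at 0.43, 0.29, 0.40 and 0.41. Ndufv1 was at 126, 113 and 124 CPM with rSRGN against 107, 102 and 88.7 CPM without it, and Uqcrc1 at 147, 141 and 149.7 CPM against 132, 115 and 124 CPM. Atp5g2 was at 120.0, 119 and 120.3 CPM with rSRGN, below the 136, 147 and 147 CPM of hypoxia and also below control. In none of the 11 did the groups overlap. Of all 85 members, 13 lay wholly above hypoxia, 12 wholly below and 60 overlapped. The same was not counted over all genes, so whether these numbers are unusual cannot be told. By complex, the medians between the hypoxic groups were -0.03 for complex I, 0.05 for complex II, 0.06 for complex III, 0.05 for complex IV and 0.04 for complex V. The mitochondrially encoded subunits had a median of -0.25 with 0 of 13 called, the assembly factors -0.13 with 0 of 47 called, and of the carriers and coenzyme Q genes Coq8a alone was called (0.73 ± 0.11, higher).

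Hypoxia + rSRGN against control uses the same control libraries as hypoxia against control. Here 77 of the 85 members were lower, against a background of 24.8%, and 0 were higher, against a background of 24.1%. The median log2 fold change was -1.28, and all 3 libraries lay below control for 81 members. Such separation was not counted over all genes, of which 5748 of 16762 passed the adjusted p as lower without a fold limit. Per complex, 36 of 38 members of complex I were lower, 4 of 4 of complex II, 9 of 9 of complex III, 12 of 17 of complex IV and 16 of 17 of complex V. Cox6a2 was at -2.57 ± 0.10, Cox7a1 at -2.46 ± 0.12 and Cox8b at -2.35 ± 0.14, and they remained the 3 lowest members. Cox4i2 was at 4.53, 4.58 and 3.01 CPM against 2.97, 2.89 and 2.51 CPM in control (0.53 ± 0.24, edgeR adjusted p = 0.0497), under the fold limit, and called at 0.70 without hypoxia + rSRGN replicate 3.

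Some of these values carry a limit from the counting. The counting ignored the strand, and 32 of the 88 entries share exonic bases with another gene, of which 1, the second Atp5o entry, shares over 50%. Cox5b and the protein-coding entry Cox5b-ps are near-identical copies, so their fragments may be split between them, and both were lower in hypoxia (-1.39 and -1.15). A further 15 entries with matching names, of gene types other than protein-coding, held at most 0.168% of the members' counts in any library.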

How the data were processed

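Counts of 9 libraries of cultured NMVMs were analysed, 3 per group, with groups and replicate numbers taken from the sample labels. Counts were used as the authors deposited them, as raw numbers of fragments for each gene. Per the file headers they were made with featureCounts 2.0.1 on exons of GENCODE release M25, in paired-end mode and without a strand option. The submitters' processing notes name HISAT2 and mm10. All count columns were used, and 0 were left out. In R 4.3.3, genes were filtered with filterByExpr in edgeR 4.0.16, scaled by TMM and fitted with robust quasi-likelihood over all 9 libraries with a mean per group. Benjamini-Hochberg adjustment was over all 16762 tested genes, and the step was tested on simulated data. Any 2 libraries of a group differed by more than sampling noise (chi-square per degree of freedom 3.70 to 13.9). Isoform ratios used counts per kilobase with 0.5 added and an exact permutation test (scipy 1.17.1). The members, gene lists and rules were chosen with earlier results of these data known. Named are isoform families, catalytic subunits, the lowest and highest member of each complex and comparison, and members called higher in hypoxia or called with rSRGN. Ndufb1-ps, Ndufb3, Ndufb9, Ndufs6, Ndufc2, Ndufa2, Ndufa8, Uqcr10, Atp5e, Cox5b, Cox5b-ps and the genes of other lists were named after their values were seen. One gene covered by the rule is not reported here. Alternatives were DESeq2 1.42.0, other scalings, filters and thresholds, fewer libraries, a replicate block and a length correction.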

Additional observations from a re-analysis of the deposited data

How the results depend on the processing

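Over all alternatives, 73 to 82 members were called in hypoxia against control and 74 to 83 in hypoxia + rSRGN against control, and these counts stayed within 1.5 times the main ones. In hypoxia + rSRGN against hypoxia, 2 or 3 members were called except without the fold limit, which gave 11. Without that limit 2823 of all 16762 tested genes passed, a larger share than that of the members. With DESeq2, 76, 2 and 77 members were called in the 3 comparisons, beside 8548, 540 and 8119 of all 16762 genes. The median log2 fold change in hypoxia against control was -1.19 with library size alone, -1.33 with a filter of 1 count over all libraries and -1.57 with the trend on gene length taken out. With that length correction the median was 0.15 in hypoxia + rSRGN against hypoxia and -1.40 in hypoxia + rSRGN against control, and Cox6a1 (-0.78) and Cox8a (-0.84) were called lower in hypoxia.

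The sign changed for these members. Atp5g2 in hypoxia against control was -0.0198 with DESeq2 and with RLE scaling, -0.0491 with the filter of 1 count, -0.00028 with 10 counts in every library, -0.0063 with only the 2 groups and -0.29 with the length correction. With each library left out it ran from -0.0410 to 0.0394. The length correction also turned Cox6b2 (-0.0067) and Cox7a2l (-0.0309) in hypoxia against control, and Sdhd (0.0396) and Uqcrb (0.0320) in hypoxia + rSRGN against hypoxia. Sdha in the last comparison ran from -0.0271 to 0.241 with each library left out, lowest without hypoxia replicate 3. The cause was not tested. Same-numbered replicates did not deviate together (correlations of -0.04 to 0.02 over 9 pairs), so the numbers do not pair the libraries. With a replicate block, 74, 2 and 77 members were called, beside 8551, 467 and 8115 of all 16762 genes. A fit without robust estimation, chosen after seeing the data, gave 74, 2 and 77. With 3 libraries a group, no ratio test can pass 0.05.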
